A study of Mus musculus with 8 samples.

Results

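The ATP-binding cassette (ABC) transporter genes were described in lymphatic endothelial cells sorted from untreated and inflamed mouse ear skin. Members were all genes whose symbol consists of Abc, a subfamily letter from a to g, a number and at most 1 further letter, and for which the array had a probe set annotated to no other gene. The array held 45 such genes on 92 probe sets, of 18193 genes and 45037 probe sets in all. By subfamily, 14 genes belonged to A, 8 to B, 10 to C, 3 to D, 1 to E, 3 to F and 6 to G.

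The cells came from ears of female FVB mice and were collected as cells positive for CD31 and podoplanin and negative for CD45. Inflamed samples came from animals that had received 2% oxazolone, a skin-sensitising chemical, on abdomen and paws and were challenged on the ears 5 days later with 1% oxazolone (10 µl per side), with collection 24 hours after the challenge. Untreated samples were from mice labelled healthy and untreated. Each group had 4 samples, each pooled from 3 mice aged 8 to 10 weeks, and the samples formed 4 pairs of 1 untreated and 1 inflamed sample sorted and extracted on a shared day.

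ABC proteins use the energy of ATP to move lipids, drugs, peptides or ions across membranes, except the E and F subfamilies, which lack membrane domains and act on ribosomes. Subfamily A and G members include the cholesterol exporters Abca1 and Abcg1, which load cholesterol onto apolipoprotein A-I and onto high-density lipoprotein. Both are known targets of the liver X receptors (LXRs), nuclear receptors activated by oxysterols that bind direct repeats spaced by a 4-base gap (DR4) together with retinoid X receptors. Lymphatic vessels are known as the route by which high-density lipoprotein leaves the skin.

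In inflamed samples 3 ABC genes fell: Abca1, Abcg1 and the drug and urate exporter Abcg2. Of the 20 other ABC genes tested, 0 passed the test in either direction. The upstream sequence of Abca1 is shown first because Abca1 had the smallest p of the family and held the family's only match to a DR4 pattern. It was taken from RefSeq (GRCm38.p6, minus strand), in which 35 of the 45 genes, and 17 of the 23 tested below, had an entry. The first run is chr4:53159989-53160145, from 250 to 94 bases before the listed start, with an E-box (CACGTG) in capitals. The second is the 30-base window chr4:53159940-53159969, from 74 to 45 bases before that start, with the DR4 match in capitals, and the third is the same window on the opposite strand. The annotated span of the Abca1 gene is chr4:53030789-53159988, so the first run lies outside it and the DR4 window inside it.

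Abca1 upstream stretch: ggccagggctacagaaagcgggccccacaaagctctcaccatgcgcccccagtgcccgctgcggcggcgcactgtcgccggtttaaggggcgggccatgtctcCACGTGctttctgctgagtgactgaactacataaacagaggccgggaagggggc

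Abca1 DR4 window: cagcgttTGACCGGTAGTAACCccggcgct

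Abca1 DR4 window, opposite strand: agcgccggGGTTACTACCGGTCAaacgctg

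The DR4 pattern was searched in a relaxed form, GGTNA followed by any 5 bases and by GGTNA again, on both strands of the 250 bases before each start. It matched 1 of 42 ABC promoters, that of Abca1, and 0.621% of all 32851 promoters. CACGTG was found before Abca1, Abca8a, Abcc4 and Abcf1, and in 6.02% of all promoters. A further pattern of sterol-responsive promoters, TCACNCCAC, was found before Abca3 and in 1.05% of all. The antioxidant response pattern TGACNNNGC was found before Abcc2, Abcc4 and Abcc10 and in 10.2% of all. The GC box GGGCGG was found in 20 of the 42 ABC promoters, of 17 genes, and in 32.7% of all promoters, and the STAT pattern TTCNNNGAA before Abcc5 and in 7.02%. None of the 3 listed starts of Abcg2 held the relaxed DR4 pattern, and Abcg1 had no entry. A match describes the letters of the window only.

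Signals are given as log2 of the MAS5 signal, the summary value of a probe set on an Affymetrix array, and a change is the mean of inflamed minus untreated samples on that scale. A gene was represented by its brightest probe set and was tested if the mean log2 signal of that probe set was at least 3.30, the median of all probe sets. This left 23 of the 45 ABC genes: 4 of A, 6 of B, 5 of C, 2 of D, 1 of E, 3 of F and 2 of G. On each array a background ceiling was set from bacterial control probe sets, between 2.53 and 3.31, and 14 of the 23 genes were above it on all 8 arrays. Of the 10843 genes tested, 328 (3.02%) were lower and 424 (3.91%) higher after inflammation in limma, with an adjusted p below 0.05. Of the 23 ABC genes, 3 (13.0%) were lower and 0 higher, while at an unadjusted p under 0.05 there were 5 lower and 1 higher, against 11.5% and 10.5% of all genes. Centring each array on its median took the median over all genes from a change of -0.09 to 0.22, and the split to 227 lower and 719 higher, or 76.0% of calls higher against 56.4%. The same 3 ABC genes were lower under that scaling.

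Several features of the samples moved with the comparison. The lymphatic defining genes Prox1, Lyve1, Flt4, Pdpn and Pecam1 were above the ceiling on all 8 arrays. The summed linear signal of the 8 lymphatic markers on the array was 20738 to 27402 in untreated and 11911 to 21562 in inflamed samples, lower in all 4 pairs, with 0 of 7 tested members higher and 2 lower. On the log2 scale Prox1 differed by -1.44, Pecam1 by -0.72, Flt4 by -0.37 and Lyve1 by -0.18. Pdpn went the other way, higher in 4 of 4 pairs by a mean of 0.56, and none of these defining genes passed. Blood endothelial markers summed to 3571 to 6788 and 2713 to 5208, also lower in all 4 pairs, with 1 of 9 higher and 3 lower. Of the 7 tested monocyte and macrophage markers 0 passed in either direction. All 7 had a change above 0, with a median of 1.86 against -0.09 over all genes. The sum over the 11 on the array was 496 to 1139 in untreated and 736 to 1933 in inflamed samples, higher in 3 of 4 pairs. Ptprc, which encodes CD45, was above the ceiling on 0 of 4 untreated and 3 of 4 inflamed arrays, C1qa on 0 and 1, and Itgam on 0 and 2. Adgre1 went the other way, with 3 of 4 untreated and 2 of 4 inflamed arrays. Mrc1 was above the ceiling on all 8 arrays, with means of 8.69 in untreated and 8.78 in inflamed samples. Neutrophil markers summed to 22.7 to 53.4 and 698 to 1653 over a list of 8 members. The inflamed sums were mostly S100a8 and S100a9, which reached the filter through the inflamed samples (above the ceiling on 1 of 4 untreated and 4 of 4 inflamed arrays). Cxcr2 was above the ceiling on 0 of 4 untreated and 3 of 4 inflamed arrays, Csf3r on 0 and 2, Camp on 1 and 3, and Mpo on 1 and 1. Ltf was above it on 0 and 0, and Ngp on 1 and 0. Fibroblast markers summed to 7015 to 21698 and 11757 to 25664, higher in all 4 pairs with 1 of 9 passing. Keratinocyte markers summed to 1006 to 4734 and 214 to 1407, higher in 1 of 4 pairs, with 3 of 7 lower. Adipocyte markers summed to 684 to 1328 and 73.6 to 984, higher in 1 of 4 pairs, with 1 of 2 lower. Pericyte markers summed to 215 to 1991 and 447 to 639, higher in 2 of 4 pairs, with 0 of 4 passing. T and mast cell markers summed to 78.3 to 125.1 and 49.3 to 99.7, higher in 1 of 4 pairs, with the 1 tested member not passing. Beside all these marker counts, 3.02% of all genes tested were lower and 3.91% higher. For Gapdh, the log2 ratio of its 3′ to its 5′ probe set was 3.85 ± 0.34 in untreated and 3.06 ± 0.33 in inflamed samples (SD, n = 4), lower in all 4 pairs, and that of Actb was -0.08 ± 0.06 and -0.07 ± 0.05. The part of these features in the changes below was not tested. In bulk samples, fewer cells of a type and less RNA per cell cannot be told apart.

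Abca1, which exports cholesterol and phospholipid to lipid-poor apolipoprotein A-I, was the ABC gene with the smallest adjusted p. Its log2 signal was 10.44, 10.31, 10.28 and 9.96 in the untreated samples of pairs 1 to 4, and 7.74, 8.04, 8.19 and 7.80 in the inflamed samples, with means of 10.25 ± 0.20 and 7.94 ± 0.21 (SD, n = 4). The samples of each group lay within a narrow range and the groups were far apart. The change was -2.31 ± 0.28 (SE), or 4.94-fold lower with a 95% interval of 3.20 to 7.63-fold, in 4 of 4 pairs (adjusted p = 0.00173). Without any single pair the change lay between -2.38 and -2.17 with adjusted p between 0.00494 and 0.0164. Without the intensity trend of the variance model the adjusted p was 0.0533.

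A pair of further Abca1 probe sets showed the same direction, so the fall did not rest on a single probe set. The second-brightest gave 9.27, 8.30, 9.32 and 9.18 in the untreated group and 6.39, 6.47, 7.45 and 4.52 in the inflamed group. Its change was -2.81 ± 0.54 (SE; adjusted p = 0.0159 with each of 19626 probe sets tested as a feature of its own in limma, where 2.59% were lower). The third gave a change of -2.10 ± 0.51 (adjusted p = 0.0416). The groups did not overlap on any of the 3 probe sets.

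Abcg1, which passes cholesterol on to high-density lipoprotein, had the largest measured fall of the 23 genes. Its log2 signal was 8.32, 9.05, 9.28 and 7.68 in the untreated group and 3.34, 4.81, 6.42 and 5.92 in the inflamed group. Untreated samples were all higher than every inflamed sample, and the inflamed samples were spread more widely, with pair 1 the lowest, still above its ceiling of 2.96. Among inflamed samples pair 1 was also the lowest for Prox1 (7.79, against 9.95 to 11.05 in the others), Lyve1, Flt4 and Pdpn, while Pecam1 was lowest in pair 4. The part of this in the Abcg1 values was not tested. The change of Abcg1 was -3.46 ± 0.62 (SE), or 10.98-fold lower with a 95% interval of 4.14 to 29.1-fold, in 4 of 4 pairs (adjusted p = 0.0118). The adjusted p was 0.0507 without pair 1, 0.0594 without pair 2, 0.0539 without pair 3 and 0.0776 without the intensity trend, so the call ended in each of these cases. Its changes without a pair lay between -4.02 and -2.95. A dimmer Abcg1 probe set gave 4.38, 6.40, 5.08 and 5.38 against 3.92, 4.03, 1.55 and 4.04, again without overlap, and did not pass (change -1.92 ± 0.82, SE, with 3 of 4 inflamed arrays above the ceiling; adjusted p = 0.215).

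Abcg2, also called breast cancer resistance protein, exports drugs, porphyrins and urate, and was the only other G member tested. Its log2 signal was 8.56, 9.70, 9.13 and 9.24 in the untreated group and 6.29, 7.84, 7.63 and 7.26 in the inflamed group. The groups were apart, and pair 1 was the lowest sample of both. The change was -1.90 ± 0.35 (SE), or 3.74-fold lower with a 95% interval of 2.15 to 6.51-fold, in 4 of 4 pairs (adjusted p = 0.0134). The adjusted p was 0.0527 without pair 1, 0.0572 without pair 2, 0.0536 without pair 3 and 0.0789 without the intensity trend, so this call too ended there. Abcg2 is known from blood capillary endothelium in several tissues. The summed blood endothelial signal given above was lower in all 4 pairs beside it, while its members went both ways: Aqp1, Efnb2 and Gpihbp1 were lower and Car4 higher, and 4 of 9 had a change above 0. Car4 was above the ceiling on 1 of 4 untreated arrays and reached the filter through the inflamed samples.

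**Figure D1:**
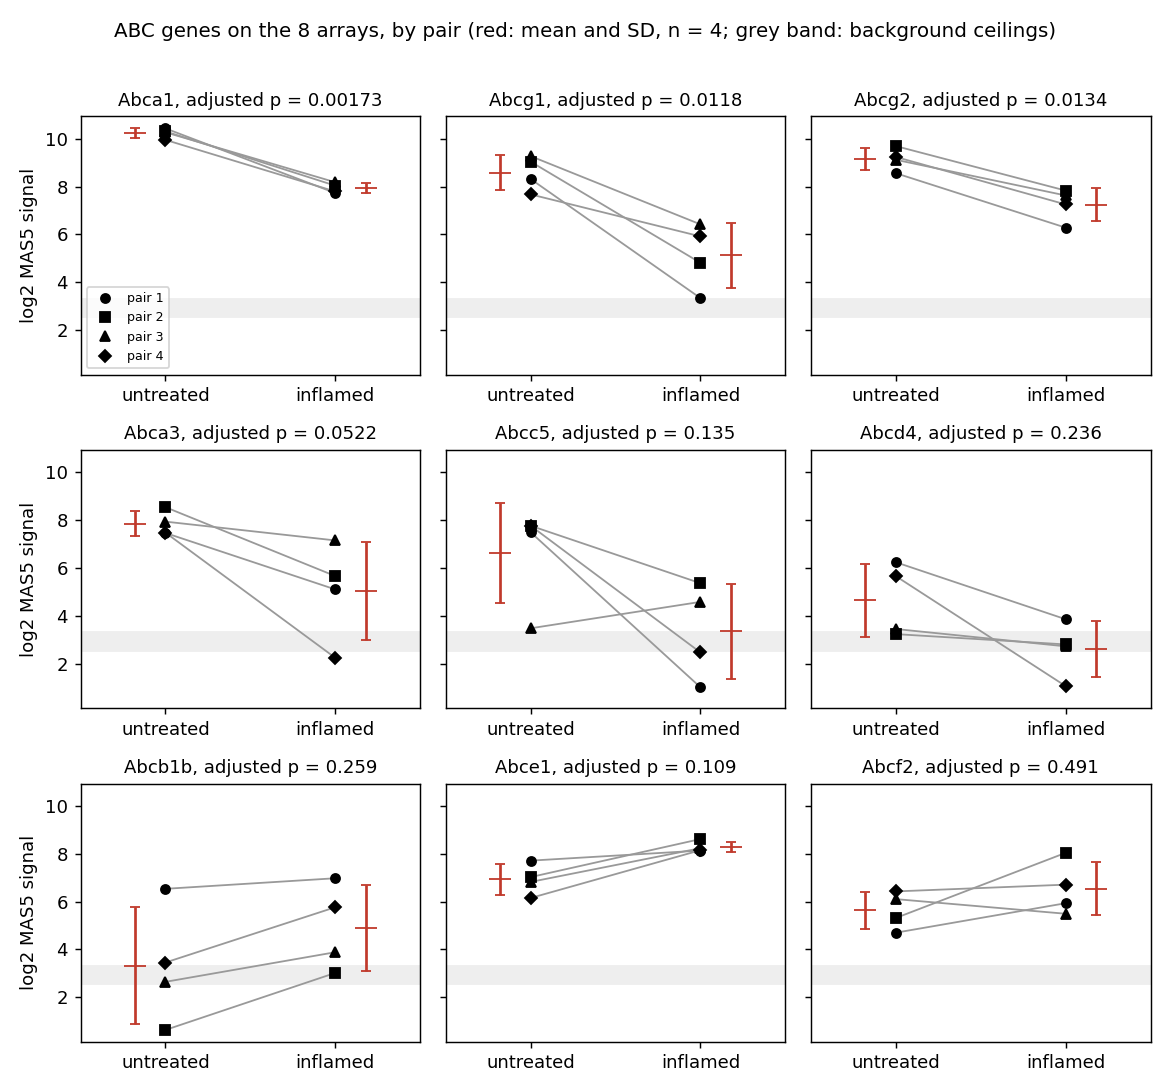
Log2 MAS5 signal of 9 ABC genes (vertical axes) in untreated and inflamed samples (horizontal axes), with grey lines joining the 4 pairs, red bars giving the mean and SD (n = 4) and a grey band the range of background ceilings. Abca1, Abcg1, Abcg2 and Abca3 are lower in all inflamed samples than in any untreated one, Abce1 is higher in all of them, and the other 4 genes overlap.

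The other G members did not reach the filter. The brightest probe sets of Abcg3, Abcg5 and Abcg8 were under the ceiling on all 8 arrays, Abcg5 and Abcg8 being known as the paired sterol exporters of liver and intestine. Abcg4, a relative of Abcg1 known from brain, was above the ceiling on 2 of 4 untreated and 3 of 4 inflamed arrays.

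Among the other A members, which mostly move lipids, Abca3 missed the threshold. Abca3, known for loading phospholipid into the lamellar bodies of lung cells, gave 7.47, 8.55, 7.94 and 7.48 in the untreated group and 5.11, 5.67, 7.16 and 2.25 in the inflamed group. The groups did not overlap, and pair 4 was the lowest inflamed sample, under its ceiling. Its change was -2.82 ± 0.73 (SE; adjusted p = 0.0522), and it is named here after its values were seen. It passed under a stricter filter (adjusted p = 0.0373), with a pseudocount of 16 (0.0348) and over the mean of its probe sets (0.0328), and its adjusted p was 0.143 without the intensity trend. A second Abca3 probe set differed by -1.90 ± 0.95 (adjusted p = 0.295), lower in 4 of 4 pairs with overlapping groups. Abca5 and Abca7, both linked to cellular lipid export, differed by -0.56 ± 0.70 and 0.48 ± 0.88 (adjusted p = 0.703 and 0.812), and the sign of Abca7 turned without pair 2. A second Abca5 probe set differed by -1.32 ± 1.14.

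The remaining 10 A members were under the filter. Abca6, Abca8b, Abca13, Abca14 and Abca16 were above the ceiling on 0 of 8 arrays, and Abca12, the keratinocyte lipid transporter, on 1. Abca2 was above it on 4 of 4 untreated and 2 of 4 inflamed arrays, Abca4, the photoreceptor retinoid transporter, on 2 and 1, Abca8a on 3 and 1, and Abca9 on 1 and 2. None of these 10 passed when all 18193 genes were tested without the filter.

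In subfamily B, which holds the P-glycoproteins and several mitochondrial transporters, 0 of 6 tested genes passed. Abcb1b, a P-glycoprotein that exports drugs, gave 6.54, 0.63, 2.64 and 3.45 in the untreated group and 6.98, 3.01, 3.88 and 5.76 in the inflamed group. Each inflamed sample was above its partner, but the groups overlapped widely. The change was 1.59 ± 0.76 (SE; adjusted p = 0.259), with 2 of 4 untreated and 3 of 4 inflamed arrays above the ceiling. The other P-glycoprotein gene, Abcb1a, differed by -0.10 ± 1.10, a sign that turned under each of the 3 other scalings tried and without pair 1 or pair 3, and its 95% interval of -2.58 to 2.39 leaves room for large changes either way. Probe sets of these close paralogs could share target RNA, and this was not tested. Abcb4, which moves phosphatidylcholine, differed by -0.55 ± 0.75, and the porphyrin transporter Abcb6 by -0.63 ± 0.56. The mitochondrial Abcb8 and Abcb10 differed by 0.05 ± 0.95 and -0.13 ± 0.60, the sign of Abcb10 turning under median centring, cyclic loess and without pair 4, and that of Abcb8 without pair 1 or pair 4. For the brightest probe sets of these 5 genes other than Abcb1b the adjusted p was at least 0.569. A second Abcb10 probe set differed by -1.30 ± 0.79 (SE), lower in 4 of 4 pairs with overlapping groups, and did not pass (adjusted p = 0.399 in limma with each probe set as a feature).

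The bile salt exporter Abcb11 was above the ceiling on 0 of 8 arrays. Abcb9, a lysosomal peptide transporter, was above it on 2 of 4 untreated and 0 of 4 inflamed arrays. Of the 12 tested genes of mitochondrial iron-sulfur and haem synthesis, which use some of the B members, 0 passed in either direction (median change -0.03, against -0.09 over all genes).

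The peptide transporters Tap1 and Tap2 are B members by structure, though their symbols lie outside the rule, and they carry peptides to MHC class I molecules. Tap1 went from 3.91, 4.67, 5.71 and 4.51 in untreated to 7.80, 7.95, 8.27 and 8.65 in inflamed samples, a rise of 3.47 ± 0.55 (SE; adjusted p = 0.00704). Tap2 went from 5.41, 2.15, 4.05 and 4.70 to 7.41, 7.08, 6.95 and 6.94, a rise of 3.02 ± 0.70 (adjusted p = 0.0345). Groups were apart for both. Cftr, the chloride channel that is a C member by structure, was above the ceiling on 0 of 8 arrays.

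In subfamily C, which holds the multidrug resistance-associated proteins and the sulfonylurea receptors, 0 of 5 tested genes passed. Abcc5, known for the export of cyclic nucleotides, gave 7.50, 7.77, 3.48 and 7.77 in the untreated group and 1.01, 5.37, 4.58 and 2.47 in the inflamed group. The untreated sample of pair 3 stood well under the other untreated samples, and pair 3 alone was higher in the inflamed sample. The change was -3.27 ± 1.16 (SE, adjusted p = 0.135), and without pair 3 it was -4.73 ± 0.97 (adjusted p = 0.0448). Only 2 of 4 inflamed arrays were above the ceiling, those of pairs 1 and 4 being under it. A second Abcc5 probe set gave 5.61, 7.19, 5.59 and 4.59 against 1.83, 1.49, 1.75 and 3.50, without overlap, with 1 of 4 inflamed arrays above the ceiling (change -3.61 ± 0.93; adjusted p = 0.0531). The other Abcc5 probe sets at or above the filter differed by -0.45 ± 0.79 and -1.14 ± 0.93.

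Abcc1, the exporter of glutathione conjugates and leukotriene C4, differed by -0.63 ± 0.41 (SE), lower in 4 of 4 pairs (adjusted p = 0.421). Its other probe set differed by 0.68 ± 0.55, so the direction depended on the probe set. Abcc4, an exporter of cyclic nucleotides and prostaglandins, went from 5.16, 5.03, 4.16 and 3.47 to 6.65, 4.61, 4.98 and 6.83, a change of 1.32 ± 0.78 that did not pass (adjusted p = 0.374). It was higher in 3 of 4 pairs. Abcc3, an exporter of glucuronides, differed by -0.77 ± 0.87. Among the 13 tested genes of glutathione supply and xenobiotic sensing, glutathione reductase, Gsr, rose by 1.07 ± 0.26 (adjusted p = 0.0380). The glutathione transferase Gstm1 fell by 2.60 on the log2 scale (adjusted p = 0.0215), and the quinone reductase Nqo1 differed by -1.23 ± 0.41 without passing (adjusted p = 0.114). These were the only calls in that list, 1 of 13 in each direction where 3.91% of all genes were higher and 3.02% lower, and the median change was 0.12.

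The sulfonylurea receptors Abcc8 and Abcc9 form ATP-sensitive potassium channels with the pore subunits Kcnj11 and Kcnj8. Abcc8 differed by 0.32 ± 0.82 (SE; adjusted p = 0.871), a sign that turned without pair 4. Abcc9, also known as a pericyte gene, lay under the filter and was above the ceiling on 2 of 4 arrays in each group. Kcnj8 and Kcnj11 differed by 1.19 ± 1.32 and 0.63 ± 0.80 (adjusted p = 0.661 and 0.707). Of the untested C members, Abcc12 was above the ceiling on 0 of 8 arrays, Abcc2 and Abcc6 on 1 untreated array each, and Abcc10 on 2 untreated and 1 inflamed.

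In subfamily D, whose members carry fatty acyl-CoA into peroxisomes or cobalamin out of lysosomes, 0 of 2 tested genes passed. Abcd3, an abundant protein of the peroxisomal membrane, gave 9.79, 8.79, 8.96 and 8.75 in the untreated group and 9.65, 8.71, 8.70 and 8.93 in the inflamed group. The change was -0.07 with a 95% interval of -0.70 to 0.55, and its sign turned under median centring. Abcd3 and Abcf1 were the 2 tested ABC genes whose interval lay within a change of 1 either way. Abcd4, linked to lysosomal cobalamin transport, gave 6.24, 3.23, 3.45 and 5.66 against 3.86, 2.80, 2.72 and 1.06, lower in 4 of 4 pairs with overlapping groups. Its change was -2.03 ± 0.92 (SE; adjusted p = 0.236), and only 1 of 4 inflamed arrays was above the ceiling. A second Abcd4 probe set differed by -1.69 ± 1.19, lower in 3 of 4 pairs. Among the 12 tested genes of peroxisome import and fatty acid oxidation, 0 passed (median change -0.50), and Hsd17b4, a peroxisomal oxidation enzyme, had the smallest p (-1.09 ± 0.39; adjusted p = 0.138).

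Abcd2, the peroxisomal transporter of very-long-chain acyl-CoA, lay just under the filter at a mean of 3.29 and is named after its values were seen. It gave 4.73, 4.46, 5.94 and 3.69 in the untreated group and 1.34, 1.99, 2.49 and 1.69 in the inflamed group. All 4 untreated arrays and 0 of 4 inflamed arrays were above the ceiling. The untreated mean was 3.21-fold above the mean inflamed ceiling, a bound on the measured means that carries no sampling error. The dimmer Abcd2 probe sets, above the ceiling on at most 1 array, differed by 0.11, 0.19 and 0.46. In limma without the filter Abcd2 did not pass (change -2.82 ± 0.84 SE, adjusted p = 0.0994). Of the 22 ABC genes under the filter 0 passed, where 1.66% of all 18193 genes were lower and 2.18% higher. At an unadjusted p under 0.05 that fit gave 1 of the 22 lower, Abcd2, and 1 higher, Abca6, whose signal was under the ceiling on all 8 arrays.

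Abce1, the factor that splits ribosomes after termination and the only E member, went from 7.72, 7.03, 6.83 and 6.15 in untreated to 8.14, 8.62, 8.24 and 8.15 in inflamed samples. The groups did not overlap, and the inflamed samples lay closer together than the untreated ones. The change was 1.36 ± 0.44 (SE), 2.56-fold higher with a 95% interval of 1.28 to 5.10-fold, in 4 of 4 pairs, and it did not pass over all genes (adjusted p = 0.109). Under median centring it did (1.66; adjusted p = 0.0454). A second Abce1 probe set differed by 1.27 ± 0.55, with overlapping groups (adjusted p = 0.221; higher in 3 of 4 pairs).

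In subfamily F, whose members act in translation, 0 of 3 tested genes passed. Abcf2 gave 4.70, 5.32, 6.11 and 6.43 against 5.93, 8.04, 5.49 and 6.71, with overlap (change 0.91 ± 0.68, SE; adjusted p = 0.491). A second Abcf2 probe set differed by -0.48 ± 0.74, so the direction depended on the probe set. Abcf1, a partner of initiation factor eIF2, gave 9.55, 9.69, 9.54 and 9.83 against 9.80, 10.33, 9.78 and 9.51. Its change was 0.20 with a 95% interval of -0.35 to 0.76. The 4 other Abcf1 probe sets at or above the filter differed by -0.80, 0.63, 0.68 and 2.13, so the value depended on the probe set. The last 2 had groups apart and did not pass (adjusted p = 0.354 and 0.100). Abcf3 differed by 0.16 ± 0.65, a sign that turned without pair 1 and over the mean of its probe sets. Of 9 tested genes of ribosome recycling and translation control, the eIF2 subunit Eif2s2 rose by 0.66 ± 0.14 (adjusted p = 0.0223) and no other passed, where 3.91% of all genes were higher. The release factors Gspt1 and Etf1, which act just before Abce1, differed by 1.31 ± 0.41 and 1.13 ± 0.44 (adjusted p = 0.0946 and 0.171).

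**Figure D2:**
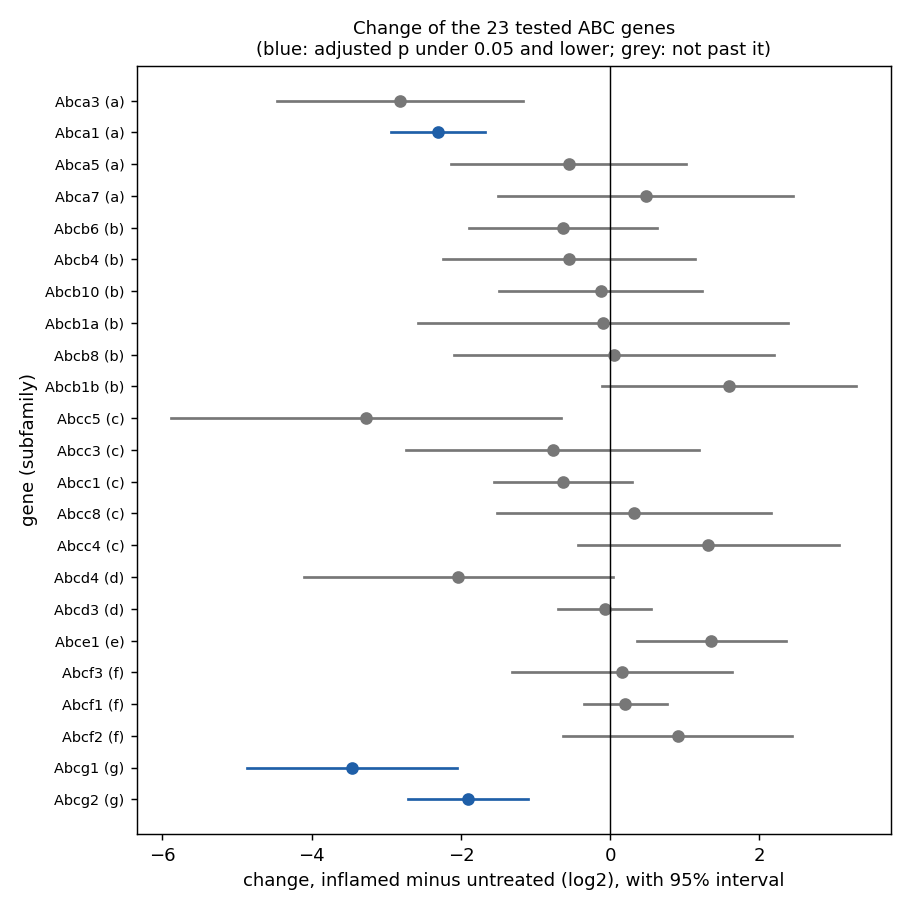
Change of the 23 tested ABC genes on the log2 scale (horizontal axis, inflamed minus untreated, point and 95% interval of the limma fit), by gene and subfamily (vertical axis). Abca1, Abcg1 and Abcg2, in blue, passed an adjusted p of 0.05; the points run from -3.46 for Abcg1 to 1.59 for Abcb1b, and most intervals span 0.

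Over the family the 23 changes had a median of -0.13, close to that of all 10843 genes at -0.09, with 14 below 0 and 9 above. The groups did not overlap for 4 genes that were lower, Abca1, Abca3, Abcg1 and Abcg2, and for 1 that was higher, Abce1, where 6.84% and 6.3% of all genes did so. In all 4 pairs 6 genes were lower and 2 higher, against 15.5% and 13.6% of all genes. The number of arrays limits the precision, and the SE of single ABC genes ran from 0.25 to 1.16.

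Of the 12 ABC genes with more than 1 probe set at or above the filter, 8 had all probe sets on the same side of 0 and 4 did not, these being Abcc1, Abcf1, Abcf2 and Abcf3. With each probe set tested as its own feature, 5 of the 41 ABC probe sets were lower and 0 higher (2.59% and 3.13% of all 19626 probe sets). The 5 were the 3 of Abca1 and the brightest of Abcg1 and Abcg2. Probe sets of a gene are not replicates of the condition, as they read the same 8 samples.

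**Figure D3:**
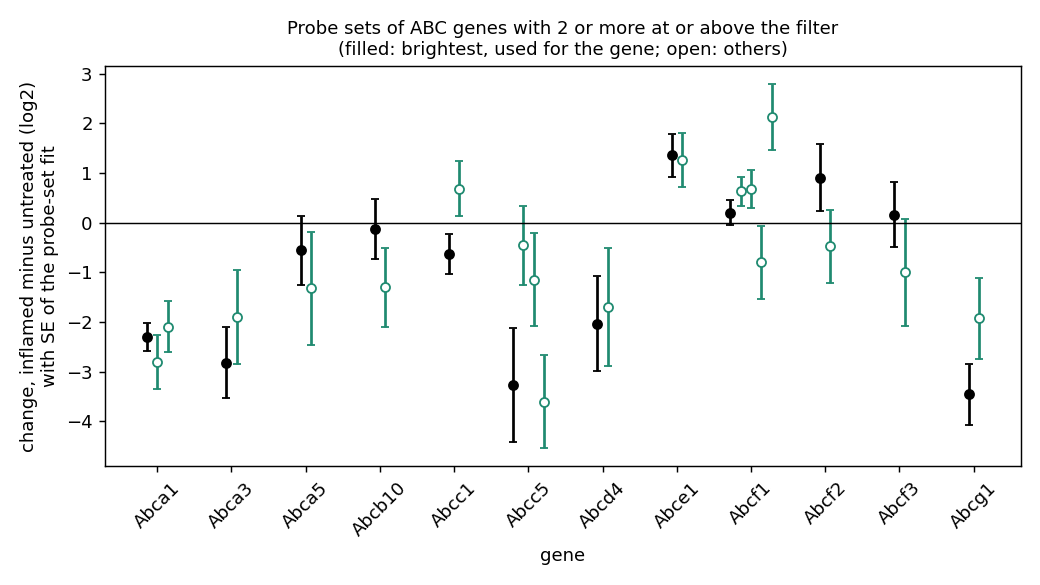
Change on the log2 scale (vertical axis, inflamed minus untreated, with the SE of the probe-set fit) for each probe set of the 12 ABC genes with more than 1 at or above the filter (horizontal axis). Filled points are the brightest probe set, which represents the gene; the 3 points of Abca1 lie between -2.81 and -2.10, whereas those of Abcf1 lie between -0.80 and 2.13.

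Genes around the cholesterol exporters were followed in lists of known pathway members. Of the 14 tested LXR and RXR receptors and known LXR targets, 2 were lower and 0 higher, where 3.02% and 3.91% of all genes were, with a median change of -0.63 against -0.09 over all genes. Mylip, a ubiquitin ligase that degrades the LDL receptor, went from 7.92, 6.36, 7.67 and 6.84 in untreated to 4.70, 4.83, 3.13 and 3.96 in inflamed samples, without overlap (change -3.04 ± 0.68, SE; adjusted p = 0.0303). Scd2, a fatty acid desaturase, went from 9.75, 10.24, 9.49 and 8.87 to 8.02, 7.76, 7.67 and 8.57, also without overlap (change -1.58 ± 0.39; adjusted p = 0.0430). The apolipoprotein gene Apoc1 differed by -4.12 ± 1.43 (adjusted p = 0.129), and was above the ceiling on 4 of 4 untreated and 1 of 4 inflamed arrays.

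Of the 17 tested genes of cholesterol synthesis and its control by the transcription factor SREBP, 3 were higher and 0 lower, where 3.91% and 3.02% of all genes were, with a median change of 1.23. Cyp51, the lanosterol demethylase, went from 7.56, 5.06, 7.89 and 5.69 in untreated to 9.61, 9.69, 8.82 and 9.51 in inflamed samples, a rise of 2.86 ± 0.60 (SE; adjusted p = 0.0221). The squalene epoxidase Sqle rose by 3.49 ± 0.85 (adjusted p = 0.0404). Its untreated samples were spread widely, at 0.98, 4.88, 6.47 and 3.47, with 3 of 4 above the ceiling. The third, the isoprenoid synthase Fdps, had an untreated mean of 2.73, with 1 of 4 untreated arrays above the ceiling, and an inflamed mean of 6.01. It reached the filter only through the inflamed samples, so its call (adjusted p = 0.0312) is partly set by the filter. All of these lists and the members were chosen with earlier results of these data known.

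**Figure D4:**
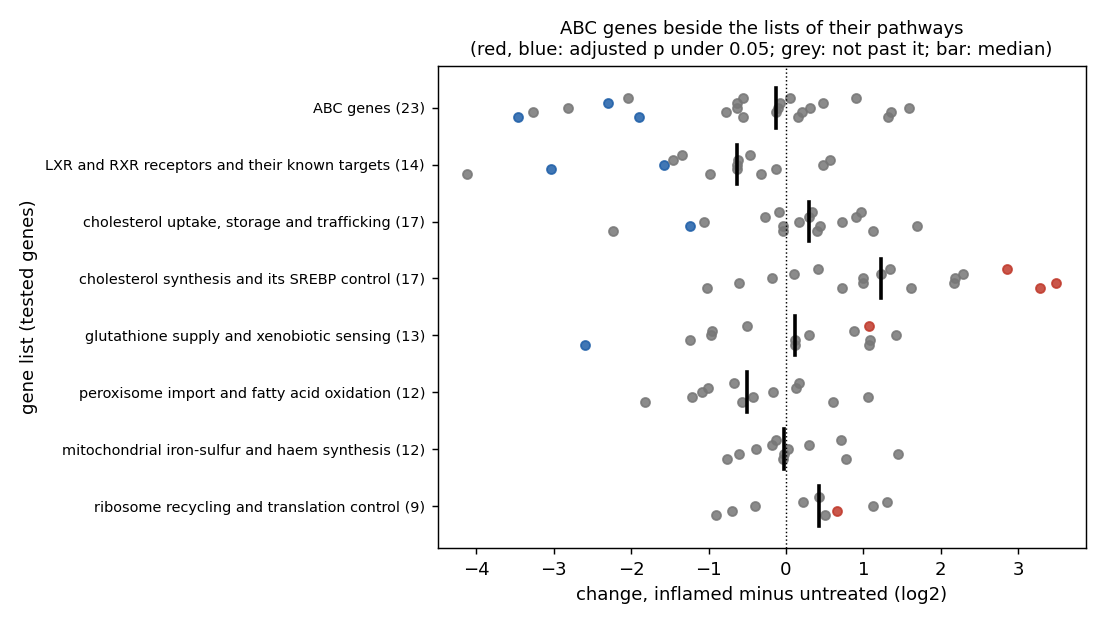
Change on the log2 scale (horizontal axis, inflamed minus untreated) of the tested ABC genes and of the tested members of 7 pathway lists (vertical axis, number of genes in brackets). Points in blue or red passed an adjusted p of 0.05 and black bars are medians. These lie at -0.13 for the ABC genes, -0.63 for LXR and RXR receptors with LXR targets, and 1.23 for cholesterol synthesis.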

How the data were processed

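RNA of 8 sorted samples was amplified by linear isothermal amplification, labelled with biotin and hybridised to 1 array each, per the labels' protocols. The deposited table holds linear intensities, 1 for each probe set of each array, which the authors made with MAS5 per the submitters' processing notes. Not given in the sources used here: its scaling target and detection calls. Probe sets were named by GEO's platform annotation, in which 34945 of 45037 named 1 gene, and 34754 of those gene IDs were in RefSeq with no symbol to update. The intensities were taken to log2 without a pseudocount or further scaling.

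The brightest probe set stood for a gene, and genes under a mean of 3.30 (a signal of 9.84) were left out. Genes were tested two-sided with limma 3.58.1 in R 4.3.3 (intensity trend, pair as a fixed block, Benjamini-Hochberg over all 10843 genes). The series' design text gives the pairs as sorted and extracted on a shared day; the correlation of paired samples' deviations from their group mean was 0.16, -0.0012, 0.08 and 0.03 for pairs 1, 2, 3 and 4. The background ceiling was the 95th percentile of 27 bacterial control probe sets that are not hybridisation spikes. The fit was tested on simulated data.

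Values per array are given for Abca1, Abcg1, every ABC gene past the threshold and the gene with the smallest p of each subfamily. They are also given, outside that rule, for Abca3, Abcc4, Abcd2, Abcd3 and Abcf1. At most 3 members of each pathway list are named, except that all 5 ABC proteins and channel partners outside the symbol rule are. The members, the lists and the rules were chosen with earlier results of these data known. Alternatives were other scalings, filters, blocks and probe-set rules, a pseudocount of 16, no trend, and each pair left out.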

Additional observations from a re-analysis of the deposited data

Results flagged for a closer look

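Among the 9 ABC genes with values plotted by pair, 18 groups of 4 samples were examined for a sample far from the others, and 1 had such a sample. The untreated sample of pair 3 gave a log2 signal of 3.48 for the brightest Abcc5 probe set, while the other untreated samples gave 7.50, 7.77 and 7.77. Chance alone marks about 1 in 20 groups. On the second Abcc5 probe set the same sample gave 5.59, between the other untreated samples at 4.59 and 7.19. Another probe set at or above the filter gave 5.17, between other untreated samples at 3.90 and 5.96. A further one repeated the low value, with 2.76, under the ceiling of 3.14, against 6.35, 4.89 and 6.31.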

How the results depend on the processing

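Abca1 was lower and passed in 13 of 14 alternatives, Abcg1 and Abcg2 in 10 of 14 each. Adjusted p over the alternatives ran from 0.000233 to 0.0533 for Abca1, 0.00647 to 0.0776 for Abcg1 and 0.00569 to 0.0789 for Abcg2. No alternative with 1 value per gene turned the sign of Abca1, Abcg1, Abcg2, Abca3, Abcb1b, Abcc5, Abcd4, Abce1 or Abcf2. With each probe set as a feature, the second Abcf2 probe set had the opposite sign (-0.48). Without the intensity trend 94 genes were higher, 47 lower and 0 ABC genes lower, with adjusted p of 0.0533, 0.0776 and 0.0789 for Abca1, Abcg1 and Abcg2. Median centring gave 719 higher and 227 lower genes and 1 ABC gene higher (Abce1). With 1 pair left out, 208 to 306 genes were higher and 126 to 198 lower, and 1 to 3 ABC genes were lower: 1 without pair 1 or pair 2 (Abca1), 2 without pair 3 (Abca1 and Abcc5) and 3 without pair 4. With each probe set as a feature, an alternative chosen after seeing the data, 508 probe sets were lower. Without the replicate block 384 genes were higher and 301 lower, and the same 3 ABC genes were lower (adjusted p = 0.000429, 0.0105 and 0.0198 for Abca1, Abcg1 and Abcg2); the block changed no call of an ABC gene. The causes of these shifts were not tested, beyond there being fewer samples with a pair left out. Under the stricter filter, the pseudocount of 16 and the mean of probe sets 4 ABC genes were lower, the fourth being Abca3. Genes near the background ceilings have only bounds there.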

Other observations

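Among 17 tested genes of cholesterol uptake, storage and trafficking, 1 was lower and 0 higher, where 3.02% and 3.91% of all genes were, so the list's count lay near the share of all genes; its median change was 0.29. Cav1, the caveolar coat protein that binds cholesterol, fell by 1.24 on the log2 scale (adjusted p = 0.00571 in limma) and was lower in 4 of 4 pairs. Gramd1b, which moves cholesterol from the plasma membrane to the endoplasmic reticulum, differed by -2.23 ± 0.73 (SE; adjusted p = 0.112), and the lipoprotein receptor Lrp1 by 0.97 ± 0.35 (adjusted p = 0.142), and neither passed.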
